A study of Mus musculus with 8 samples.

Results

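The genes described here are interferon-stimulated genes and genes of MHC class I antigen presentation in mouse islets, clusters of hormone-secreting cells within the pancreas. They were chosen by name, as 39 gene symbols that cover sensors of foreign RNA, the transcription factors of the interferon response, antiviral effectors, the ISG15 system, interferon-induced GTPases, the class I pathway and 1 chemokine. Of these symbols, 37 had a value among the 22632 genes of the deposited table. The symbol Ifi27 was absent, but its identifier was deposited as Ifi27l1, with 5.06 to 8.92 RPM over the 8 libraries. Nlrc5 was not analysed here.

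Total RNA was sequenced in 8 libraries, 2 from each of 4 groups, after depletion of ribosomal RNA and with an Illumina TruSeq kit. Knockout mice (Tcf7 -/-) were compared with wild-type littermates (Tcf7 +/+), all with a C57BL/6 background. The groups were knockout at 20 weeks of age on a high-fat diet with 45% fat, wild type at 20 weeks on that diet, knockout at 8 weeks on a low-fat diet with 10% fat, and wild type at 8 weeks on the low-fat diet. Diet and age cannot be told apart. Nothing in the labels says that 2 libraries of 1 group are 2 animals, and p-values therefore speak only of the spread among these samples, which may be technical.

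Interferons are secreted when a cell senses foreign nucleic acid or when immune cells are activated. Their receptors signal through JAK kinases to transcription factors, among them STAT2 and IRF9, which act at the interferon-stimulated response element in promoters, while interferon gamma acts mainly at the gamma-activated site. MHC class I molecules display peptides to cytotoxic T lymphocytes, and in islets their raised level on beta cells is known from type 1 diabetes.

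Levels are given in RPM, reads scaled by a library's total. The recovered totals were 58.7 to 191 M reads, and 1 read was worth 0.00523 to 0.0170 RPM. The share of reads in listed genes was 55.7% to 61.2% at 20 weeks, against 41.6% to 51.0% at 8 weeks, and it enters every RPM value. Islet endocrine markers such as Ins1, Ins2 and Gcg summed to 41501 to 63577 RPM, so the labelled tissue was borne out by its markers. Acinar markers, of the surrounding exocrine pancreas, summed to 1893 to 16596 RPM. Tcf7 itself was no lower in libraries that carry the knockout label. It stood at 4.56 and 2.56 RPM in those at 20 weeks against 1.58 and 0.991 RPM in wild type, and at 0.512 and 0.519 RPM in those at 8 weeks against 0.277 and 0.381 RPM in wild type. Its log2 fold change was 0.97 ± 0.22 (limma SE, adjusted p = 0.16) at 20 weeks and 0.19 ± 0.22 (adjusted p = 1) at 8 weeks. The sources used here do not say which part of the gene is deleted, so the whole-gene value may hold reads from outside it. The libraries are called knockout-labelled below, and every genotype direction rests on the labels.

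Promoter windows were read for the letters of 2 elements through which interferon-stimulated genes are known to respond. Whether a match acts in its gene was not tested. RefSeq windows on the build GRCm38.p6, from 250 bases before to 50 bases after the start, were found for 30 of the 37 genes. The windows were searched for the response element written GAAA-NN-GAAA (TTTC-NN-TTTC on the other strand) and the gamma-activated site written TTCNNNGAA, which reads the same on both strands. The response element occurred in 15 of the 30 windows (50%), against 3.99% of 27025 genes in the table. The gamma-activated site occurred in 8 of the 30 (26.7%), against 9.55% of the table, and the 2 motifs overlapped in 1 member, Bst2. These genes were listed because they are known interferon targets, so the shares describe the list. The windows of Dhx58, Mx1, Mx2, Oas2, Parp14, Rtp4 and Usp18 were not used here.

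The windows of 4 members are printed because 3 of them, Ifit1, Ifih1 and Psmb8, passed the test between 20 and 8 weeks, and B2m had the smallest p between genotypes at 8 weeks. Capitals mark the response element in Ifit1, Ifih1 and B2m and the gamma-activated site in Psmb8. The windows lie at chr19:34640639-34640938 (plus strand) for Ifit1, chr2:62646206-62646505 (minus strand) for Ifih1, chr2:122147437-122147736 (plus strand) for B2m and chr17:34197945-34198244 (plus strand) for Psmb8.
Ifit1: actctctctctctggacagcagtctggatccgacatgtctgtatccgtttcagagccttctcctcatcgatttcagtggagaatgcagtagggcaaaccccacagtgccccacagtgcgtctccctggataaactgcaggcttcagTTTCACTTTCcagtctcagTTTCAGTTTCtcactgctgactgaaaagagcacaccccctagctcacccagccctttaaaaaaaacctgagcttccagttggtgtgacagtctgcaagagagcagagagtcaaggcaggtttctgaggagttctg
Ifih1: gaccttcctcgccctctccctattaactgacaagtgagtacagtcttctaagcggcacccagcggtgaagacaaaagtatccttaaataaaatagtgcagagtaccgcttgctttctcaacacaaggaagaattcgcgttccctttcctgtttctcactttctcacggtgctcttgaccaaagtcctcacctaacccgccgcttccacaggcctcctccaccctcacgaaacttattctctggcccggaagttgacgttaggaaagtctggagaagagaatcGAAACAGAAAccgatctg
B2m: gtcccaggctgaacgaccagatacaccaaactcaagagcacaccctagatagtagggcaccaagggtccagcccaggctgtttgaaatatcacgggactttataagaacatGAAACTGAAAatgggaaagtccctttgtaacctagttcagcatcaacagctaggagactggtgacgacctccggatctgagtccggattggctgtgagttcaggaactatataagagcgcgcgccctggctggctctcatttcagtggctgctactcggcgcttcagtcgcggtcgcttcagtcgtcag
Psmb8: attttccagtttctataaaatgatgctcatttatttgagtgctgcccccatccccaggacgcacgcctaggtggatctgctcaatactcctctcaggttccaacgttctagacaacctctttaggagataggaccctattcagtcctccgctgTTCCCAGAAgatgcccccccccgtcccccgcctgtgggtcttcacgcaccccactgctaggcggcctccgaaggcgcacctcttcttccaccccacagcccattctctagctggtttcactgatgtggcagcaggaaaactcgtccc
Ifit1 held 2 matches, at -104 and -85 from the start, both as the other-strand letters. The matches stood at 32 bases after the start in Ifih1, at -139 in B2m and at -97 in Psmb8. The windows of H2-K1 and H2-D1 held neither motif in these letters.

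Of the 7 class I genes, 4 were the most abundant members per kb of exon, the scale on which levels of different genes were compared. H2-K1 and H2-D1, the heavy chains that hold the peptide, averaged 28.4 and 25.4 RPM per kb over the 8 libraries. B2m, the light chain, averaged 15.6 RPM per kb, and Tapbp, tapasin, which aids peptide loading, 10.2 RPM per kb. They were followed by Irf1 at 5.24 RPM per kb and Trim25 at 4.53 RPM per kb. The other 3 class I genes lay lower, with Tap1 at 0.650, Psmb8 at 0.643 and Psmb9 at 0.374 RPM per kb. At the other end stood Isg15, a ubiquitin-like modifier, at 0.146 RPM per kb, the chemokine Cxcl10 at 0.0825 and Ifi44 at 0.0709 RPM per kb. H2-K1 and H2-D1 overlapped in their ranges over libraries. B2m, with a lowest value of 12.6 RPM per kb, did not overlap Tapbp, which reached 12.1 RPM per kb, and Tapbp did not overlap Irf1. Isg15 rested on 7 to 33 reads a library, and Cxcl10 on 3 to 50.

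**Figure D1:**
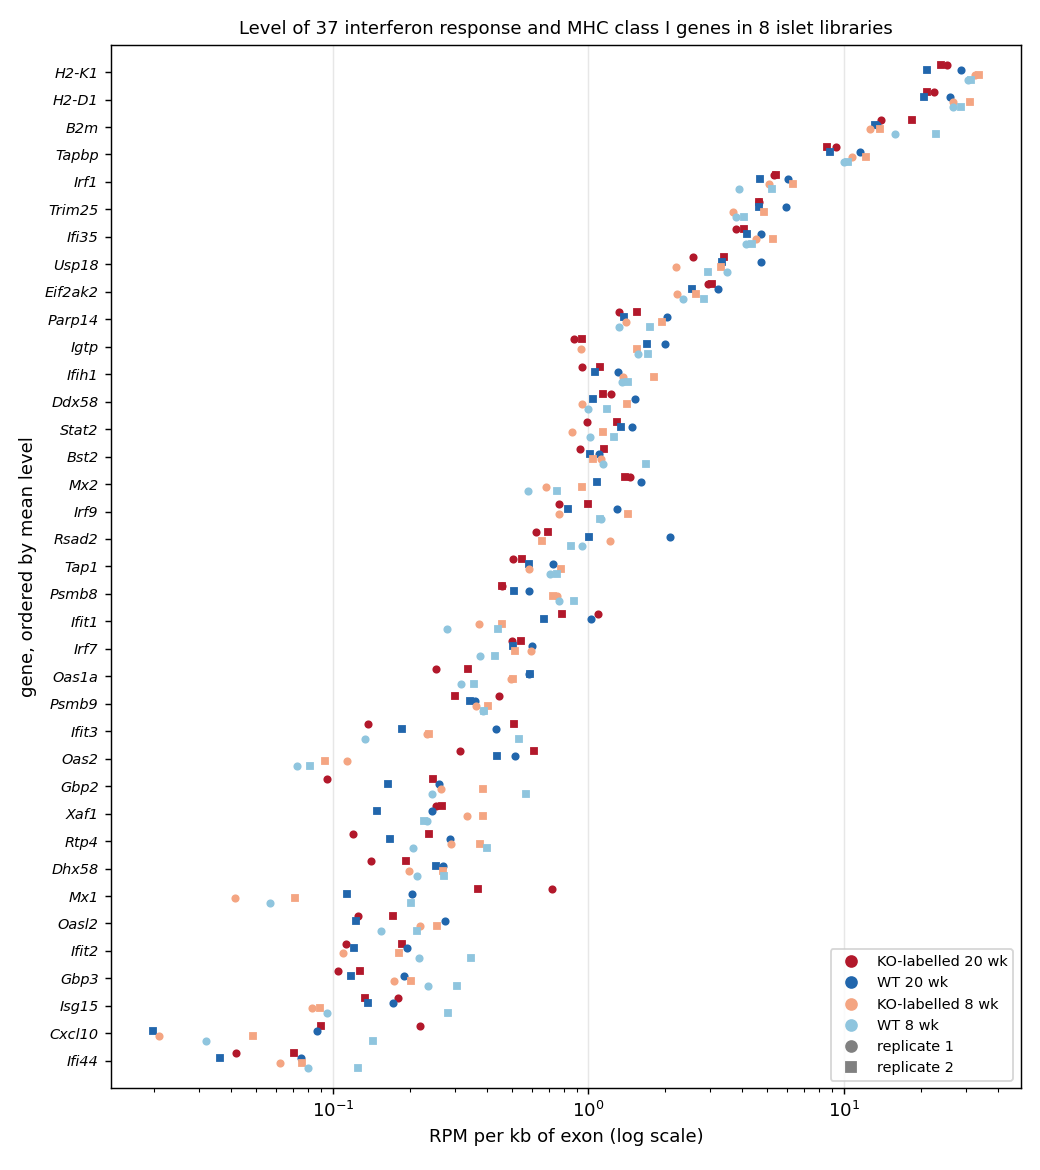
Level of the 37 members in each of the 8 libraries, in RPM per kb of exon on a log axis, ordered by mean level. Colours give the group and shapes the replicate. The class I genes H2-K1, H2-D1, B2m and Tapbp lie at the top, and Isg15, Cxcl10 and Ifi44 at the bottom.

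Of the 37 members, 28 reached 1 RPM in at least 2 libraries and were tested. The other 9 were Isg15, Ifi44, Ifit2, Ifit3, Rtp4, Cxcl10, Gbp2, Gbp3 and Dhx58. They include the sensor Dhx58 (LGP2), the RNA-binding Ifit2 and Ifit3, and the GTPases Gbp2 and Gbp3. Cxcl10, which draws activated T lymphocytes, stood at 0.494 and 0.202 RPM in knockout-labelled and 0.195 and 0.0444 RPM in wild-type libraries at 20 weeks. At 8 weeks it stood at 0.0471 and 0.110 RPM in knockout-labelled and 0.0715 and 0.323 RPM in wild-type libraries. Its genotypes overlapped at 8 weeks, and at 20 weeks both knockout-labelled libraries lay above wild type, on 29 and 14 reads against 33 and 3.

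Between 20 weeks on high fat and 8 weeks on low fat, averaged over genotypes, 4 antiviral effectors were higher and 2 other members were lower. Oas2, Ifit1, Mx2 and Mx1 rose, while the immunoproteasome subunit Psmb8 and the sensor Ifih1 fell. This is 6 of the 28 tested members, with 4 higher and 2 lower, where 31.2% of all 13347 tested genes were called higher and 6.05% lower, 37.2% in all (limma on log2(RPM + 1), Benjamini-Hochberg adjusted p under 0.05). The median log2 fold change was -0.04 over the members and 0.17 over all tested genes. Genes as a whole thus stood 0.17 higher at 20 weeks on this scale, and Oas2, Ifit1, Mx2 and Mx1 lay above that shift.

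Oas2 makes oligoadenylates that activate the RNA-degrading enzyme RNase L. It stood at 1.40 and 2.72 RPM in knockout-labelled and 2.29 and 1.95 RPM in wild-type libraries at 20 weeks, against 0.507 and 0.415 RPM in knockout-labelled and 0.322 and 0.361 RPM in wild-type libraries at 8 weeks. All 4 libraries at 20 weeks lay above all 4 at 8 weeks, and the mean was 5.21-fold higher. The log2 fold change was 1.12 ± 0.15 (limma SE, adjusted p = 1.1e-05, n = 4 libraries at each age). Oas2 reached the minimum of 1 RPM through its 20-week libraries alone, so that its entry into the test rested on the age at which it was higher. It was higher in both knockout-labelled (1.03 ± 0.21, limma adjusted p = 0.0016) and wild-type islets (1.22 ± 0.21, adjusted p = 0.00041). The span of Gm43068 overlaps Oas2 on the other strand, but their exons share 0 bases. The use of strand in counting is not given, so whether reads of both genes were kept apart is not known.

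Ifit1 binds RNA that lacks the host's cap modification. It stood at 2.89 and 2.09 RPM in knockout-labelled and 2.71 and 1.78 RPM in wild-type libraries at 20 weeks, against 0.988 and 1.22 RPM in knockout-labelled and 0.742 and 1.17 RPM in wild-type libraries at 8 weeks. The ages did not overlap. Its mean was 2.30-fold higher, with a log2 fold change of 0.72 ± 0.15 (limma SE, adjusted p = 0.00099). No gene on the other strand overlapped it, and 7.14% of its 50-base words were shared with other genes, mostly Ifit1bl2.

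Mx2 and Mx1 belong to a family of dynamin-like GTPases that act against viruses. C57BL/6 mice are known to carry a defective Mx1 allele, and no protein of either gene was measured here. Mx2 stood at 5.26 and 5.01 RPM in knockout-labelled and 5.82 and 3.89 RPM in wild-type libraries at 20 weeks, against 2.47 and 3.42 RPM in knockout-labelled and 2.09 and 2.71 RPM in wild-type libraries at 8 weeks. The ages did not overlap, and the log2 fold change was 0.71 ± 0.15 (limma SE, adjusted p = 0.0014). Mx1 stood at 2.72 and 1.40 RPM in knockout-labelled and 0.775 and 0.429 RPM in wild-type libraries at 20 weeks, against 0.157 and 0.268 RPM in knockout-labelled and 0.215 and 0.768 RPM in wild-type libraries at 8 weeks. Its ages overlapped, since 1 wild-type library at 8 weeks lay above 1 wild-type library at 20 weeks. The average log2 fold change was 0.71 ± 0.16 (limma SE, adjusted p = 0.0024). This average was made up of 1.30 ± 0.23 in knockout-labelled islets (limma adjusted p = 0.00047) and 0.12 ± 0.23 in wild type (adjusted p = 0.77). Mx1 rested on 24 to 160 reads a library, and without either knockout-labelled library at 20 weeks it missed the minimum of 1 RPM in 2 libraries and was not tested.

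Psmb8 is a proteolytic subunit of the immunoproteasome, which cuts proteins into peptides for class I. It stood at 1.55 and 1.56 RPM in knockout-labelled and 1.98 and 1.73 RPM in wild-type libraries at 20 weeks, against 2.55 and 2.45 RPM in knockout-labelled and 2.59 and 2.97 RPM in wild-type libraries at 8 weeks. The ages did not overlap, and the log2 fold change was -0.43 ± 0.13 (limma SE, adjusted p = 0.016). The call was lost without replicate 2 of wild type at 20 weeks (limma adjusted p = 0.062) or at 8 weeks (adjusted p = 0.093). Of its exon bases, 14.7% overlap Gm20496, an antisense gene. In bulk islets, fewer cells of a type and less RNA per cell cannot be told apart.

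Ifih1 encodes MDA5, a sensor of long double-stranded RNA whose human gene is linked to type 1 diabetes. It stood at 7.68 and 9.02 RPM in knockout-labelled and 10.7 and 8.66 RPM in wild-type libraries at 20 weeks, against 11.2 and 14.7 RPM in knockout-labelled and 11.0 and 11.6 RPM in wild-type libraries at 8 weeks. The ages lay apart by a narrow gap. Its log2 fold change of -0.39 ± 0.15 (limma SE) just passed, with an adjusted p of 0.047, and without replicate 1 of knockout-labelled islets at 8 weeks it passed as well. Leaving out any of the other 7 libraries ended the call, with limma adjusted p of 0.062 without replicate 2 of the same group, 0.18 and 0.074 without replicates 1 and 2 of knockout-labelled islets at 20 weeks, 0.067 and 0.20 without those of wild type at 20 weeks, and 0.13 and 0.15 without those of wild type at 8 weeks.

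**Figure D2:**
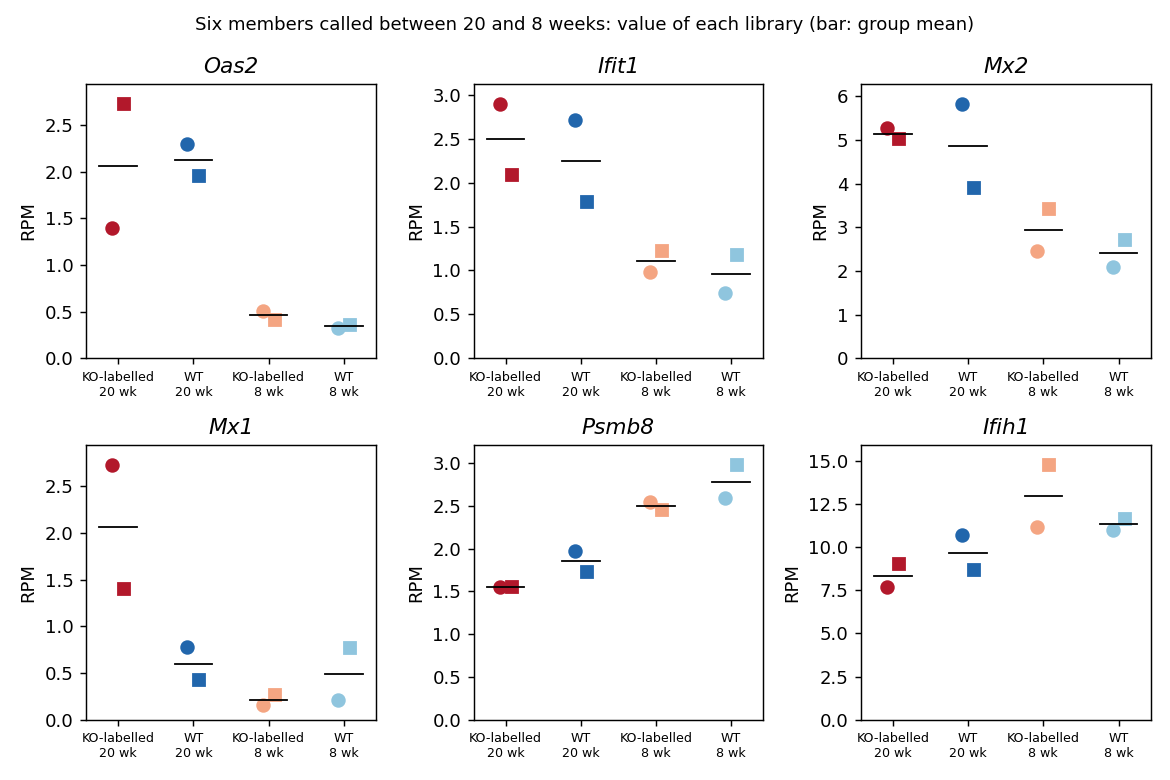
RPM of Oas2, Ifit1, Mx2, Mx1, Psmb8 and Ifih1 in each library (circle, replicate 1; square, replicate 2; bar, group mean of 2 libraries), with axes from 0. Oas2, Ifit1 and Mx2 lay higher in all 4 libraries at 20 weeks, Psmb8 and Ifih1 lay lower in all 4, and Mx1 reached 2.72 and 1.40 RPM in knockout-labelled islets at 20 weeks and no more than 0.775 RPM in the other 6 libraries.

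In RPM 1 of the 7 class I genes, Psmb8, was called lower at 20 weeks, where 6.05% of all genes were. With median-of-ratios scaling 6 were, where 29.6% of all genes were. All 7 had a negative log2 fold change in RPM, with a median of -0.20, as did 4576 of all 13347 tested genes. Cell type markers changed in both directions between the same ages, where 31.2% of all genes were called higher and 6.05% lower. Called lower were 2 of 5 pan-leukocyte markers, Ptprc and Coro1a, and both tested B lymphocyte markers. So were 2 of 3 markers of fibroblasts and stellate cells, Col3a1 and Dcn, and 2 of 8 islet endocrine markers, Gcg and Ppy. Called higher were 1 of 8 tested macrophage markers, Csf1r, and 1 of 6 acinar markers. Among 3 duct markers 1 was called higher and 1 lower, and 0 of 6 endothelial markers were called. The pan-leukocyte markers summed to 4.49 to 7.29 RPM in knockout-labelled and 5.60 to 6.60 RPM in wild-type libraries at 20 weeks, against 3.61 to 3.86 RPM in knockout-labelled and 15.7 to 20.0 RPM in wild-type libraries at 8 weeks. Coro1a, Dcn and both B lymphocyte markers reached the minimum of 1 RPM through wild type at 8 weeks alone. The duct marker Sox9 reached it through knockout-labelled islets at 20 weeks alone. The part of these cells in the members' values was not tested. H2-K1 stood at 74.1 and 70.6 RPM in knockout-labelled and 84.6 and 61.9 RPM in wild-type libraries at 20 weeks, against 95.7 and 99.3 RPM in knockout-labelled and 90.1 and 92.0 RPM in wild-type libraries at 8 weeks. H2-D1 stood at 58.2 and 54.6 RPM in knockout-labelled and 67.3 and 52.8 RPM in wild-type libraries at 20 weeks, against 68.6 and 80.3 RPM in knockout-labelled and 68.8 and 74.3 RPM in wild-type libraries at 8 weeks. For both heavy chains the ages did not overlap, and their ratio in RPM was 1.17 to 1.40 in all libraries. In RPM neither passed the test, with log2 fold changes of -0.38 ± 0.17 for H2-K1 (limma adjusted p = 0.085) and -0.32 ± 0.16 for H2-D1 (adjusted p = 0.12). With values rescaled by median-of-ratios size factors, they stood at -0.60 ± 0.11 for H2-K1 (limma adjusted p = 0.0027) and -0.55 ± 0.08 for H2-D1 (adjusted p = 0.0013). Of the 50-base words of H2-K1, 8.79% also occur in other genes, mainly of class I, and of those of H2-D1 14.3% do, so the authors' counting could split or drop such reads.

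Under that rescaling 6 of the 7 class I genes fell, all but Psmb9, another immunoproteasome subunit. Tap1, the peptide transporter, had a log2 fold change of -0.38 ± 0.07 (limma adjusted p = 0.0032) under it and -0.20 ± 0.14 in RPM (adjusted p = 0.28). Tapbp had -0.40 ± 0.09 (limma adjusted p = 0.0077) under it and -0.18 ± 0.15 in RPM (adjusted p = 0.38). B2m had -0.32 ± 0.12 (limma adjusted p = 0.045) under it and -0.11 ± 0.16 in RPM (adjusted p = 0.61). The rescaled counts over all members were 4 higher and 11 lower, where 29.4% of all genes were called higher and 29.6% lower, and the median of all genes moved to -0.02. The share of all calls that were higher was 83.8% in RPM, 49.8% with median-of-ratios scaling, 49.1% with edgeR and 32.1% with scaling to the reads of listed genes. In edgeR's quasi-likelihood test on the recovered reads, 4 members were higher and 12 lower, where 28.8% and 29.9% of all genes were. Members called lower on these scales beyond the class I genes and Ifih1 are not named here. The 6 members called in RPM were called in the same direction under each of these 3 scalings. Ddx58, Irf1, Irf7, Oas1a, Rsad2 and Usp18 changed sign between RPM and median-of-ratios scaling and passed the test under neither.

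**Figure D3:**
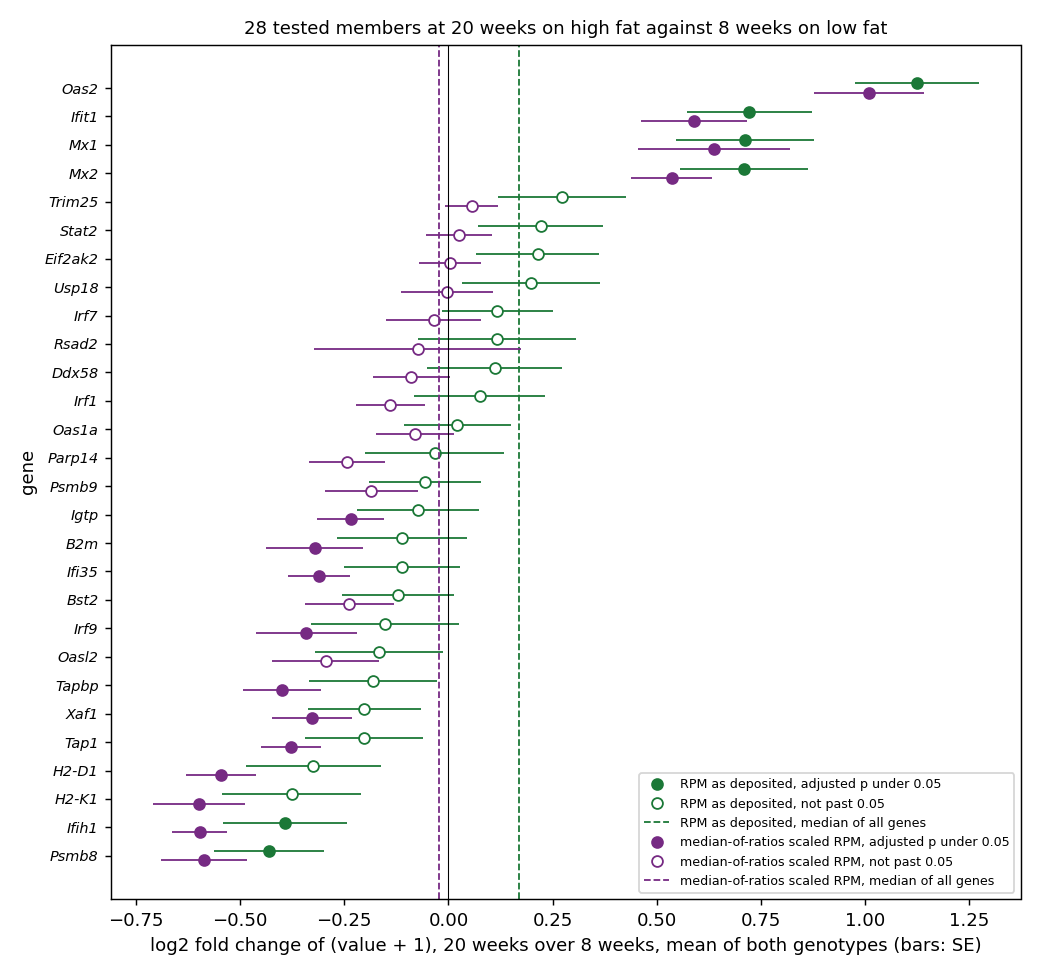
Log2 fold change of (value + 1) at 20 weeks over 8 weeks for the 28 tested members, mean of both genotypes, in RPM (green) and in median-of-ratios scaled RPM (purple), with limma SE as bars and filled points for an adjusted p under 0.05. Dashed lines give the median of all genes, 0.17 in RPM and -0.02 rescaled. Oas2, Ifit1, Mx1 and Mx2 are filled to the right on both scales, and the class I genes lie to the left.

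Counted by separation alone, all 4 libraries at 20 weeks lay above all 4 at 8 weeks for Ifit1, Mx2 and Oas2 among the 28 tested members, where 30.4% of all genes did. They lay below for H2-D1, H2-K1, Ifih1 and Psmb8, where 8.19% of all genes did. Within knockout-labelled islets, Oas2, Ifit1, Mx2 and Mx1 were called higher, where 19.8% of all genes were, and 0 members lower, where 2.22% were. Within wild type, Oas2, Ifit1 and Mx2 were called higher, where 16.9% of all genes were, and 0 members lower, where 1.63% were. At an unadjusted limma p under 0.05, 6 of the 28 members (21.4%) passed in each genotype in either direction, where 34.4% of all genes did in knockout-labelled islets and 31.9% in wild type. In knockout-labelled islets edgeR called 4 members higher and 10 lower, where 23.5% and 21.6% of all genes were. In wild type it called 3 higher and 6 lower, where 19.8% and 18.1% of all genes were.

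The other sensors and the transcription factors did not pass between the ages in RPM. Eif2ak2 encodes PKR, a kinase that halts translation on binding double-stranded RNA. It stood at 15.0 and 15.6 RPM in knockout-labelled and 16.4 and 13.0 RPM in wild-type libraries at 20 weeks, against 11.3 and 13.4 RPM in knockout-labelled and 12.0 and 14.5 RPM in wild-type libraries at 8 weeks. Its ages overlapped. Irf1, a factor induced by interferon gamma, stood at 21.1 and 21.5 RPM in knockout-labelled and 23.9 and 18.7 RPM in wild-type libraries at 20 weeks, against 20.1 and 25.2 RPM in knockout-labelled and 15.4 and 20.8 RPM in wild-type libraries at 8 weeks. Stat2, the partner of IRF9, stood at 5.87 and 7.66 RPM in knockout-labelled and 8.78 and 7.92 RPM in wild-type libraries at 20 weeks, against 5.12 and 6.72 RPM in knockout-labelled and 6.02 and 7.48 RPM in wild-type libraries at 8 weeks. Both overlapped between ages.

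The ISG15 system and the remaining abundant effectors likewise overlapped between ages in RPM. Trim25, a ubiquitin ligase that acts on the sensor RIG-I, stood at 26.7 and 26.8 RPM in knockout-labelled and 34.2 and 26.8 RPM in wild-type libraries at 20 weeks, against 21.1 and 27.9 RPM in knockout-labelled and 21.7 and 23.4 RPM in wild-type libraries at 8 weeks. Usp18, which removes ISG15 from proteins and dampens interferon signalling, stood at 7.19 and 9.42 RPM in knockout-labelled and 13.2 and 9.32 RPM in wild-type libraries at 20 weeks, against 6.13 and 9.24 RPM in knockout-labelled and 9.68 and 8.21 RPM in wild-type libraries at 8 weeks. Both overlapped between ages. Parp14, an ADP-ribosyltransferase, ranged over 12.3 to 18.8 RPM at 20 weeks and 12.3 to 18.1 RPM at 8 weeks. Ifi35 ranged over 6.50 to 8.20 RPM at 20 weeks and 7.14 to 9.13 RPM at 8 weeks.

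The remaining tested members also overlapped between ages in RPM. The sensor Ddx58 (RIG-I) ranged over 7.34 to 10.7 RPM at 20 weeks and 6.64 to 9.97 RPM at 8 weeks. Irf9, the DNA-binding partner of STAT2, ranged over 4.12 to 6.98 RPM at 20 weeks and 4.13 to 7.69 RPM at 8 weeks. Bst2, tetherin, which holds budding virus at the cell surface, ranged over 0.834 to 1.04 RPM at 20 weeks and 0.940 to 1.52 RPM at 8 weeks. Oasl2, an oligoadenylate synthetase-like gene, ranged over 0.784 to 1.76 RPM at 20 weeks and 0.983 to 1.64 RPM at 8 weeks. Xaf1 ranged over 0.695 to 1.25 RPM at 20 weeks and 1.06 to 1.82 RPM at 8 weeks, and Psmb9 over 1.09 to 1.63 RPM at 20 weeks and 1.32 to 1.48 RPM at 8 weeks.

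Reads from genes on opposite strands bear on the comparison of ages, because the sources used here do not say how strand was used in counting. By the GENCODE M21 annotation (GRCm38, where the authors' build was mm9), 15 of the 37 members overlap the span of a gene on the other strand and 12 overlap its exons. Of all genes, 38.0% and 25.2% do. The span of Patl2 overlaps B2m on the other strand, but their exons share 0 bases. Patl2 stood at 13.2 and 16.8 RPM in knockout-labelled and 12.1 and 12.1 RPM in wild-type libraries at 20 weeks, against 0.0209 and 0.0488 RPM in knockout-labelled and 0.107 and 0.0516 RPM in wild-type libraries at 8 weeks. Its ratio to B2m was 1.05 to 1.10 in the 4 libraries at 20 weeks and 0.00193 to 0.00786 in the 4 at 8 weeks. Gm17334, on the other strand of Irf1, stood at 1.80 to 2.35 RPM at 20 weeks and 0.0244 to 0.0536 RPM at 8 weeks. Genes with such an overlap were called higher at 20 weeks in 42.4% of cases, against 21% of genes without one. Ifit1, Mx1 and Mx2, which overlap no such gene, were called higher in a fit of the 7011 genes without overlap, where 19.7% of genes were called higher and 7.06% lower. Ifih1 missed the threshold there (limma adjusted p = 0.054), and Oas2 and Psmb8 were outside that fit.

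**Figure D4:**
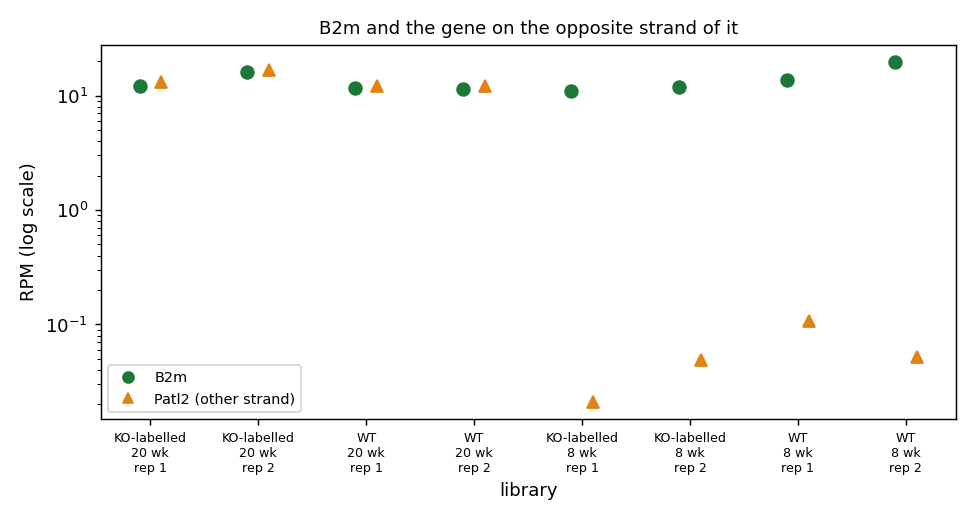
RPM of B2m (circles) and of Patl2, on the opposite strand (triangles), in each of the 8 libraries on a log axis. Patl2 lies just above B2m in the 4 libraries at 20 weeks, with a ratio of 1.05 to 1.10, and far below it in the 4 at 8 weeks, with a ratio of 0.00193 to 0.00786.

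Between knockout-labelled and wild-type islets at 20 weeks, the members nearest to a difference were Mx1, on the high side, and Igtp, Rsad2 and Oas1a on the low side, but 0 of the 28 passed. In limma 6 of all 13347 genes were called (0.045%), and edgeR called 0 members and 0 genes in all. At an unadjusted limma p under 0.05, 4 of the 28 members passed (14.3%), as did 4.36% of all genes. The median log2 fold change was -0.12 over the members and -0.04 over all genes, with 8 members positive and 20 negative.

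Mx1, whose values are given above, was 3.42-fold higher in the knockout-labelled mean, with a log2 fold change of 0.91 ± 0.23 (limma SE, adjusted p = 0.28). It reached the minimum of 1 RPM through the 2 knockout-labelled libraries at 20 weeks alone, the group in which it was high. Rsad2 encodes viperin, a radical SAM enzyme that makes an antiviral nucleotide. It stood at 2.71 and 3.01 RPM in knockout-labelled against 9.04 and 4.36 RPM in wild-type libraries at 20 weeks, with no overlap and a wide spread in wild type. Its log2 fold change was -0.93 ± 0.27 (limma SE, adjusted p = 0.45).

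Igtp, an interferon-gamma-induced GTPase of the immunity-related family, stood at 1.77 and 1.90 RPM in knockout-labelled against 4.04 and 3.43 RPM in wild-type libraries at 20 weeks. The groups did not overlap, and the log2 fold change was -0.74 ± 0.21 (limma SE, adjusted p = 0.42). Of its 50-base words, 12.3% also occur in Irgm2. Gbp2, a guanylate-binding protein gene that was not tested, stood at 0.238 and 0.619 RPM in knockout-labelled against 0.657 and 0.414 RPM in wild-type libraries at 20 weeks, and these overlapped. Oas1a, an oligoadenylate synthetase, stood at 0.477 and 0.634 RPM in knockout-labelled against 1.11 and 1.11 RPM in wild-type libraries at 20 weeks. It reached the minimum through these 2 wild-type libraries alone. Its log2 fold change was -0.44 ± 0.18 (limma SE, adjusted p = 0.92), and 57.6% of its 50-base words are shared with Oas1g, so its count is uncertain. Usp18 was the next by p, at -0.39 ± 0.23 (limma SE, adjusted p = 1.0).

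These values rest on the spread that all 8 libraries share. When the 4 libraries at 20 weeks were fitted alone, Mx1 (limma adjusted p = 0.0018), Igtp (adjusted p = 0.018) and Rsad2 (adjusted p = 0.00044) were called. That fit, with 2 libraries a group, called 266 genes in all (1.99%). Without replicate 1 or replicate 2 of wild type at 8 weeks, Mx1 (limma adjusted p = 0.014 and 0.013) and Rsad2 (adjusted p = 0.026 and 0.025) were called, with 85 and 86 genes called in all. Without replicate 1 of wild type at 20 weeks the log2 fold change of Rsad2 was -0.48 and that of Usp18 -0.16, and without replicate 2 of that group they were -1.38 and -0.62.

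Counted by groups that did not overlap at 20 weeks, B2m, Mx1 and Xaf1 were higher in knockout-labelled islets, where 12.3% of all genes were. Ifi35, Igtp, Oas1a, Psmb8, Rsad2, Stat2 and Tap1 were lower, where 21.2% of all genes were. Within each of the 4 groups, most members were higher in the same replicate in RPM. In wild type at 20 weeks, 27 of the 28 tested members were higher in replicate 1, as were 83.1% of all genes. After median-of-ratios scaling, 21 of the 28 were, as were 49.1% of all genes. In knockout-labelled islets at 20 weeks, 8 of the 28 were higher in replicate 1 in RPM, as were 33.0% of all genes. Pan-leukocyte markers summed to 4.49 to 7.29 RPM in knockout-labelled against 5.60 to 6.60 RPM in wild-type libraries at 20 weeks, and 0 of the 5 was called by limma, at an unadjusted p under 0.05 or in edgeR.

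At 8 weeks 0 of the 28 tested members differed between knockout-labelled and wild-type islets by limma, where 28 of all genes (0.21%) were called, and 0 did in edgeR. At an unadjusted limma p under 0.05, 1 member passed, as did 3.48% of all genes. The member with the smallest p was B2m. It stood at 10.9 and 11.9 RPM in knockout-labelled against 13.6 and 19.8 RPM in wild-type libraries at 8 weeks, a log2 fold change of -0.50 ± 0.22 (limma SE, adjusted p = 1). The groups did not overlap, and wild type was widely spread. Without replicate 1 of wild type at 8 weeks the log2 fold change of B2m was -0.75, and without replicate 2 it was -0.24. At 20 weeks B2m stood at 12.0 and 15.9 RPM in knockout-labelled against 11.5 and 11.4 RPM in wild-type libraries.

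The next by p at 8 weeks were Xaf1, which counters the apoptosis inhibitor XIAP, at a log2 fold change of 0.37 ± 0.19, Irf7, the factor that amplifies interferon production, at 0.30 ± 0.19, Igtp at -0.32 ± 0.21 and Irf1 at 0.32 ± 0.22 (limma SE), each with an adjusted p of 1. That of Igtp was -0.06 without replicate 1 and -0.57 without replicate 2 of knockout-labelled islets at 8 weeks. Irf7 stood at 2.26 and 1.95 RPM in knockout-labelled against 1.42 and 1.62 RPM in wild-type libraries at 8 weeks, without overlap. By groups that did not overlap, H2-K1, Ifi35, Irf7, Oas1a, Oas2, Oasl2, Tapbp and Xaf1 were higher in knockout-labelled islets, where 7.42% of all genes were. B2m, Bst2, Igtp and Psmb8 were lower, where 5.72% of all genes were. Over the members the median log2 fold change was 0.09, against -0.01 over all genes. Replicates differed here too: in RPM, 5 of the 28 members were higher in replicate 1 of knockout-labelled islets, as were 5.56% of all genes. In wild type 4 were, as were 25.1% of all genes. After median-of-ratios scaling these were 23 members and 52.0% of genes in knockout-labelled islets, and 13 members and 54.4% in wild type.

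Leukocyte markers differed between the genotypes at 8 weeks. The 5 pan-leukocyte markers summed to 3.61 to 3.86 RPM in knockout-labelled against 15.7 to 20.0 RPM in wild-type libraries at 8 weeks, and 3 of 5, Ptprc, Cd53 and Coro1a, were called lower by limma (1 of 5 by edgeR). Both tested B lymphocyte markers, Ms4a1 and Cd79b, and 1 of 8 tested macrophage markers, Lyz2, were called lower as well, against 1 of 2 and 0 of 8 by edgeR. Coro1a, Ms4a1 and Cd79b reached the minimum of 1 RPM through wild type at 8 weeks alone. T lymphocyte markers summed to 0.0471 to 0.0915 RPM in knockout-labelled against 0.903 to 1.21 RPM in wild-type libraries at 8 weeks, and Cd3e was listed at 0 in both knockout-labelled libraries. MHC class II genes, which mark antigen-presenting cells, summed to 33.2 to 36.3 RPM in knockout-labelled against 56.7 to 70.8 RPM in wild-type libraries at 8 weeks, with 0 of 5 tested genes called by limma or edgeR and 5 at an unadjusted limma p under 0.05. The part of these leukocytes in the values of B2m, Bst2, Igtp and Psmb8 was not tested. Acinar markers summed to 7383 to 14684 RPM in knockout-labelled against 1893 to 5468 RPM in wild-type libraries at 8 weeks. Of the 6 tested, 1, Amy2a5, was called higher by limma and 0 by edgeR, and 6 passed at an unadjusted limma p under 0.05. Their part in the members' values was not tested.

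The interaction, the genotype difference at 20 weeks minus that at 8 weeks, was called for 0 of the 28 members by limma, where 0.0674% of all genes were called, and for 0 in edgeR. At an unadjusted limma p under 0.05, 4 members passed, as did 3.42% of all genes. The 5 members with the smallest p were Mx1 at 1.18 ± 0.33 (limma SE, adjusted p = 0.31), Oas1a at -0.69 ± 0.26 (adjusted p = 0.84), and Rsad2 at -0.93 ± 0.38, B2m at 0.75 ± 0.31 and Igtp at -0.42 ± 0.29 (adjusted p = 1.0 each). Without replicate 1 of wild type at 8 weeks, Mx1 was called, at 1.45 (limma adjusted p = 0.018), with 69 genes called in all. The age differences of Mx1 in the 2 genotypes, 1.30 and 0.12, are thus not shown to differ in the fit of all 8 libraries.

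**Figure D5:**
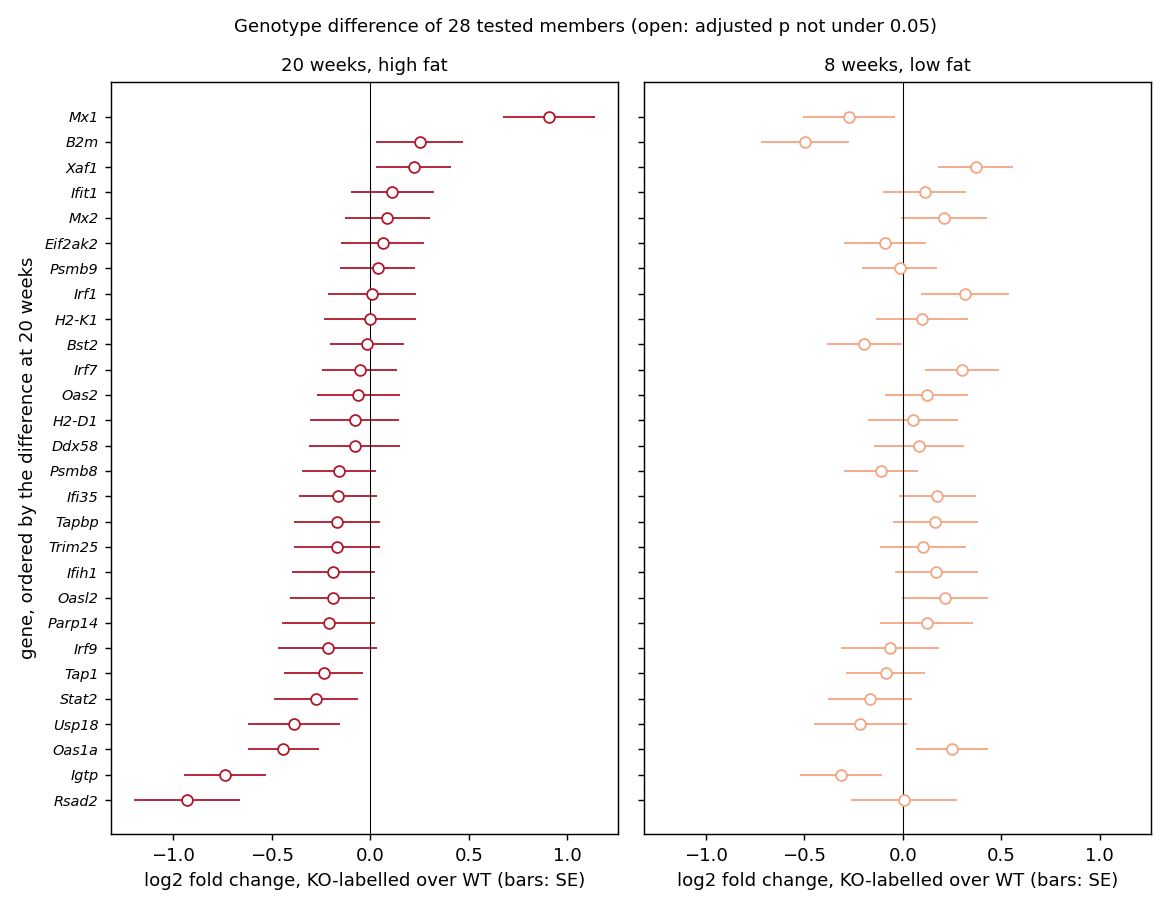
Log2 fold change of (RPM + 1), knockout-labelled over wild type, of the 28 tested members at 20 weeks on high fat (left) and 8 weeks on low fat (right), with limma SE as bars. All points are open, since no member had an adjusted p under 0.05. Mx1 lies highest at 20 weeks at 0.91 and Rsad2 lowest at -0.93, and B2m lies lowest at 8 weeks at -0.50.

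The rest of the interferon pathway was read from lists that hold no member. Of 8 interferon genes found in the table, 0 reached the minimum for the test. They summed to 0.221 to 0.389 RPM in knockout-labelled and 0.237 to 0.266 RPM in wild-type libraries at 20 weeks, against 0 to 0.0244 RPM in knockout-labelled and 0.0179 to 0.103 RPM in wild-type libraries at 8 weeks. Most of the sum at 20 weeks was Ifnk, an interferon of epithelia, at 0.154 to 0.288 RPM, and Ifnk lies across a gene on the other strand. Ifnb1 was at 0 to 0.0720 RPM over the 8 libraries, and Ifng, the interferon of T and NK cells, at 0 to 0.0903 RPM. Of 9 tested receptors and kinases, among them Ifnar1 and Jak1, 0 passed between the ages in limma on RPM, where 37.2% of all genes did. At an unadjusted limma p under 0.05, 0 passed as well, where 45.9% of all genes did. With median-of-ratios scaling and in edgeR 6 were lower, where 29.6% and 29.9% of all genes were.

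Among 4 other IRF genes, 2 rose and 1 fell between the ages in RPM, where 31.2% of all genes were called higher and 6.05% lower. Irf5 and Irf2, which rose by 2.14 ± 0.13 (limma adjusted p = 2.9e-10) and 0.93 ± 0.18 (adjusted p = 0.00061) on the log2 scale, both overlap a gene on the other strand. Irf8, a factor of myeloid and B cells, fell by 0.38 ± 0.13 on the log2 scale (limma adjusted p = 0.027). Its log2 fold change was -0.65 ± 0.18 in wild type (limma adjusted p = 0.019) and -0.12 ± 0.18 in knockout-labelled islets (adjusted p = 0.70). Irf8 reached the minimum of 1 RPM through wild type at 8 weeks alone, and Irf5 through its 20-week libraries alone. Each thus entered the test through libraries in which it was high. Of 5 sensing adaptors and related genes, Adar, which edits double-stranded RNA, rose by 0.55 ± 0.17 (limma adjusted p = 0.014), and it too has an overlap. Of 5 tested inhibitors of the pathway, Pias1 rose by 0.70 ± 0.18 (limma adjusted p = 0.0049) and Ptpn2, a phosphatase that acts on JAK kinases, by 0.54 ± 0.16 (adjusted p = 0.011). Neither overlaps a gene on the other strand.

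Of 25 other interferon-stimulated genes tested, 0 rose and 3 fell at 20 weeks in RPM, with a median log2 fold change of -0.16. With median-of-ratios scaling 0 rose and 13 fell. Of all genes, 31.2% were called higher and 6.05% lower in RPM, with a median of 0.17. Rescaled, 29.4% of all genes were called higher and 29.6% lower. Ifitm2, which blocks viral entry, had a log2 fold change of -0.78 ± 0.16 (limma adjusted p = 9.0e-04), Slfn5 one of -0.46 ± 0.17 (adjusted p = 0.040) and Ly6e one of -0.39 ± 0.15 (adjusted p = 0.048). Of 14 other class I genes tested, 1 rose and 2 fell in RPM, with a median of -0.17, and 1 rose and 8 fell with median-of-ratios scaling. The proteasome activator Psme1 had -0.74 ± 0.16 (limma adjusted p = 0.0013) and H2-M3 had -0.49 ± 0.15 (adjusted p = 0.014). H2-T24 was the one that rose, by 1.80 ± 0.15 (limma adjusted p = 1.9e-08), and it overlaps a gene on the other strand. It reached the minimum of 1 RPM through its 20-week libraries alone, the age at which it was higher. Of 3 standard proteasome beta subunits, Psmb5, whose place Psmb8 takes in the immunoproteasome, had -0.42 ± 0.15 (limma adjusted p = 0.029), and Psmb6, whose place Psmb9 takes, had -0.42 ± 0.14 (adjusted p = 0.025). Of 5 tested MHC class II genes 1, the transactivator Ciita, rose, by 0.94 ± 0.14 (limma adjusted p = 3.7e-05), also with an overlap on the other strand. Other chemokines had no tested gene and summed to 0.556 to 2.0 RPM at 20 weeks, against 0.214 to 0.845 RPM at 8 weeks. Between the genotypes, 0 of the 70 tested genes of these lists passed in limma or edgeR at either age. At an unadjusted limma p under 0.05, 4 of the 70 passed at 20 weeks, where 4.36% of all genes did. At 8 weeks 9 of the 70 did, 5 of them MHC class II genes, where 3.48% of all genes did.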

How the data were processed

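The deposited table held RPM values by the authors: per the values themselves, 100% were whole multiples of 1 read within 0.01 of a read, scaled by a library total of 58.7 to 191 M reads. CASAVA 1.8, FastQC, TopHat 1.4.1 and the build mm9 are named in the submitters' processing notes. Not given in the sources used here are the counting tool, the annotation and the use of strand. The members and lists were chosen with earlier results of these data known.

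The 13347 genes that reached 1 RPM in 2 or more of the 8 libraries were fitted in limma 3.58.1 (R 4.3.3) on log2(RPM + 1), with a mean-variance trend, 4 group means, 4 residual and 14.0 prior degrees of freedom, and Benjamini-Hochberg adjustment over all of them at 0.05. Fold changes on this scale understate the change of low genes, and low depth limits them further: 1 read was worth up to 0.0170 RPM. Contrasts were the genotype at each age, their difference, and 20 against 8 weeks per genotype and averaged. edgeR 4.0.16 (quasi-likelihood, TMM) was run on the recovered reads.

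Members past the threshold were named or, where fewer than 5 passed, the 5 with the smallest p, beside the 2 most abundant of each role group and up to 3 genes per pathway list. Coordinates, overlaps, exon lengths and 50-base words came from GENCODE M21 (GRCm38), with 91.7% of identifiers matched, and Psmb9 by symbol. Promoters were read from RefSeq. 1 gene of the pathway lists is not reported here by name. In data simulated for the genotype contrast at 8 weeks over 13224 genes, changes were placed only in genes averaging at least 2 RPM. Limma found 77 of 100 genes with a 2-fold change and 99 of 100 with a 4-fold change, beside 15 false calls. No shift of a whole library was simulated. In the real data, median-of-ratios size factors were 0.781 and 1.08 for the 2 knockout-labelled libraries at 8 weeks. These shares do not cover such shifts, nor members under 2 RPM, such as Mx1 and Oas1a. Other scalings, filters, a pseudocount of 0.1, no trend, the compared libraries alone, genes without opposite-strand overlap, a threshold of 0.1 and leaving out each library were the alternatives. Tables were made with pandas 2.3.3 and figures with matplotlib 3.10.9 in Python 3.11.15.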

Additional observations from a re-analysis of the deposited data

How the results depend on the processing

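The count of members called between knockout-labelled and wild-type islets at 8 weeks was 0 under every alternative, leaving out each library included (0 to 0). At 20 weeks it was 0 except with the compared libraries alone, where it was 3 (Mx1 higher, Igtp and Rsad2 lower), and when leaving out 1 library, where it was 0 to 2. For the interaction it was 0, and 0 to 1 when leaving out 1 library. Between 20 and 8 weeks the count was 6, where 37.2% of all genes were called. It was 16 with edgeR on recovered reads and 15 with median-of-ratios scaling, where 58.7% and 59.0% of all genes were. With scaling to the reads in listed genes it was 20, where 57.9% were. With a minimum of 5 RPM it was 2 of 16 tested members, where 40.2% of genes were. Among genes without opposite-strand overlap it was 3 of 17 tested members, where 26.8% of genes were. The minimum of 5 RPM and the overlap filter test fewer members by construction. For the other settings the cause was not tested. Oas2, Ifit1 and Mx2 kept their call in every alternative in which they were tested, as did Mx1. Psmb8 lost it in 2 alternatives and Ifih1 in 11. Ifih1 missed the threshold without a filter (limma adjusted p = 0.076), without the trend (adjusted p = 0.052) and with a pseudocount of 0.1 (adjusted p = 0.051). No fold change changed sign under an alternative among the members named for their p in that comparison. Between 20 and 8 weeks Ddx58, Irf1, Irf7, Oas1a, Rsad2 and Usp18, called in neither, changed sign between RPM and median-of-ratios scaling. No paired analysis was possible because the labels give sample numbers that are not shared between groups. With 2 libraries a group, calls rest on the spread pooled over 4 groups, and the 9 members under 1 RPM rest on few reads.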
